A study of Mus musculus with 6 samples.

Results

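The 8 genes described here make up the killing machinery of a cytotoxic lymphocyte: the granzymes Gzma, Gzmb and Gzmc, the pore protein gene Prf1, the granule membrane protein gene Nkg7, the granzyme inhibitors Serpinb9 and Serpinb6b, and the death ligand Fasl. They were chosen by name, 8 of the 18122 rows of a gene expression table, and all 8 passed the filter of a mean of at least 1 FPKM (a count of fragments divided by gene length and by library depth) over the 6 libraries. The libraries are bulk RNA-seq of lymph node CD8+ T cells from mice, kept for 18 h with anti-CD28 (1 µg/mL) in wells coated with anti-CD3 (1 µg/mL). The medium also held 20 ng/mL of IL-4 and 50 ng/mL of IFN-α, a mixture that the submitters used to make virtual memory T cells in vitro. All 6 libraries had this culture, and no unstimulated cells were among the samples. After it the cells were sorted by surface CD44 into a CD44hi fraction, which the protocol calls super-high, and a CD44lo fraction. The groups were Dusp2-/- CD44hi (2 libraries), WT CD44hi (2 libraries), Dusp2-/- CD44lo (1 library) and WT CD44lo (1 library). The labels used here do not state the age or sex of the mice, or whether Dusp2 was deleted in all cells.

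The labels are at odds in places. The titles and the design text name Dusp2-/- mice, whereas the treatment text names Cd4-Cre Rpa1fl/fl mice, and the description also names 10X Genomics. Dusp2, which encodes a nuclear phosphatase of MAP kinases, was at 0 and 0.0283 FPKM in the Dusp2-/- CD44hi libraries (0 and 3 reads), and at 82.6 and 83.9 FPKM in their WT counterparts. Among CD44lo cells it was at 0 FPKM in the knockout library and at 116 FPKM in the WT one. Rpa1 was at 41.3 and 41.4 FPKM in Dusp2-/- CD44hi cells and 33.7 and 35.2 FPKM in WT CD44hi cells, and at 28.2 FPKM in Dusp2-/- CD44lo cells and 27.4 FPKM in WT CD44lo cells, so it was not lost in any library. Cd44 was at 65.3 to 79.9 FPKM in the 4 CD44hi libraries and at 1.33 and 1.43 FPKM in the CD44lo libraries. The depth, recovered from the steps of the FPKM values, was 23490008 reads in the Dusp2-/- CD44lo library, and 42816073 to 55830235 reads in the other 5. No label says that libraries of one group came from separate animals, so the p-values measure the spread between these libraries, which may be technical.

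Cytotoxic T cells store perforin and granzymes in secretory lysosomes and release them onto a target cell. Perforin forms pores through which granzymes reach the target's cytosol, where granzyme B, a protease that cuts after aspartate, activates caspases. Granzyme A is a tryptase-like protease with other substrates. The killer cell protects its own cytosol with serpins that trap escaped granzyme, and Fas ligand is a separate route to death through the receptor Fas.

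The promoters of the granzyme genes and of both inhibitors are shown first, since these are the genes whose levels moved apart or together. Sequences are from the RefSeq promoter table of GRCm38.p6, from 250 bases before to 50 bases after the start of the gene, 5′ to 3′ on the strand of the gene. That build is not the one named for the processing, and its coordinates hold for these sequences only. All 8 genes matched an entry. Capitals mark matches to 7 short motifs, searched on both strands. For AP-1, the partner of NFAT at many T cell genes, the letters were TGANTCA. The site of CREB and ATF proteins, called CRE, was searched as TGACGTCA. Runt factors such as Runx3 were given as TGTGGT, and T-box factors such as T-bet as GGTGTGA. STAT sites were searched as TTCNNNGAA, called GAS. Letters of NFAT itself were GGAAAA, and those of the GATA factors, included for comparison, were AGATAA. A CRE match does not hold the AP-1 letters, and no matches overlapped in the promoters shown.
Gzmb, chr14:56262285-56262584, strand -: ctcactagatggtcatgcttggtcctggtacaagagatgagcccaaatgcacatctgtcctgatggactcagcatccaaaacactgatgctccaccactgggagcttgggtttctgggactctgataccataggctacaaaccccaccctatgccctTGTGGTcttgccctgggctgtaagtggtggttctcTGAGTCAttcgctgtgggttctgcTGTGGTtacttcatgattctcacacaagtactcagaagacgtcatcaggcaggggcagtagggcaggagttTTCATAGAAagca
Gzmc, chr14:56234608-56234907, strand -: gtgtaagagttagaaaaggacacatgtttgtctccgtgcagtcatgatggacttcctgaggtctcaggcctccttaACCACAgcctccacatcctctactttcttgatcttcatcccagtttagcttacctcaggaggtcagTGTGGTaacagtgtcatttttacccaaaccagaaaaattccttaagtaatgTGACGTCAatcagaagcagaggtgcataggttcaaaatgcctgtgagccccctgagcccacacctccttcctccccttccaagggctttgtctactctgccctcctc
Gzma, chr13:113100932-113101231, strand -: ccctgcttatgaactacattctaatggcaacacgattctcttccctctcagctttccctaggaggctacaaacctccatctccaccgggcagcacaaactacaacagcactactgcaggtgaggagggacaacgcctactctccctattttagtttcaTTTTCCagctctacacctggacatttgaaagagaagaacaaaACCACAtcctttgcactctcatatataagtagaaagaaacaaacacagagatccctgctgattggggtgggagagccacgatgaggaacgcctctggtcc
Serpinb9, chr13:33004291-33004590, strand +: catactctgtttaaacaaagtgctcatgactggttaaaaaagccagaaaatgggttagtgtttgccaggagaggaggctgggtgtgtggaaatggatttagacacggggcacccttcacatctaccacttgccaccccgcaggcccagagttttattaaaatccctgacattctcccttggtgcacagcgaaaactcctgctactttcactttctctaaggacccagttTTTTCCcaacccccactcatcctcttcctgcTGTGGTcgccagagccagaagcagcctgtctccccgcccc
Serpinb6b, chr13:32965011-32965310, strand +: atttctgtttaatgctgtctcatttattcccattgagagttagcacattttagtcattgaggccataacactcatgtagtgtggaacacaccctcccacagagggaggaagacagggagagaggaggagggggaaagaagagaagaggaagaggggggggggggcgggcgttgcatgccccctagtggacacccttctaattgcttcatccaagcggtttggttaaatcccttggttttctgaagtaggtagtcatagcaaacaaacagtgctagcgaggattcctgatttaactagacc

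The neighbouring genes Gzmb and Gzmc had different letters close to the start. The Gzmb promoter held an AP-1 match 58 bases before the start, with RUNX matches 93 and 34 bases before it, and a GAS match in the transcribed part. In the Gzmc promoter a CRE match lay 57 bases before the start, with RUNX matches 174 and 108 bases before it. RUNX letters were present in 6 of the 8 promoters, against 16.8% of 32851 RefSeq promoters of the same length. The AP-1 letters were present in 1 of 8 (7.81% of all promoters), CRE in 1 of 8 (1.79%), T-box in 1 of 8 (3.98%), GAS in 2 of 8 (8.30%), NFAT in 3 of 8 (23.4%) and GATA in 0 of 8 (11.2%). The Serpinb6b promoter had no match to any of the 7 motifs, while Serpinb9 had 1 to RUNX and 1 to NFAT. Such matches describe the letters only.

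The levels of the 8 genes spanned a wide range. By the mean over the 6 libraries Gzmb ranked 6 among all 18122 rows, Nkg7 119, Serpinb6b 322, Serpinb9 388, Prf1 1353, Gzma 2831, Gzmc 4540 and Fasl 6419. Gzmb ranked 4 in both Dusp2-/- CD44hi libraries; among WT CD44hi cells it ranked 5 and 11. It stood at rank 25 in the Dusp2-/- CD44lo library and 46 in the WT CD44lo library. In reads, Gzmb alone took 0.556% and 0.563% of all in Dusp2-/- CD44hi cells and 0.433% and 0.353% in WT CD44hi cells, against 0.225% in Dusp2-/- CD44lo cells and 0.132% in WT CD44lo cells.

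Granzyme RNA was therefore almost entirely Gzmb. Summed over the 7 granzyme genes with a row, it came to 3838 and 3887 FPKM in Dusp2-/- CD44hi cells and 3018 and 2464 FPKM in WT CD44hi cells, and to 1555 FPKM in Dusp2-/- CD44lo cells and 916 FPKM in WT CD44lo cells. Gzmb made up between 98.1% and 99.3% of that sum in every library. The other granzymes were below the filter and were not tested. Gzmm was at 0.598 to 1.36 FPKM, Gzmf at 0 to 0.535 FPKM and Gzmk at 0.0331 FPKM at most. Gzmd was at 0.0238 FPKM in 1 WT CD44hi library and at 0 in the others. Gzme, Gzmg and Gzmn were not analysed here.

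**Figure D1:**
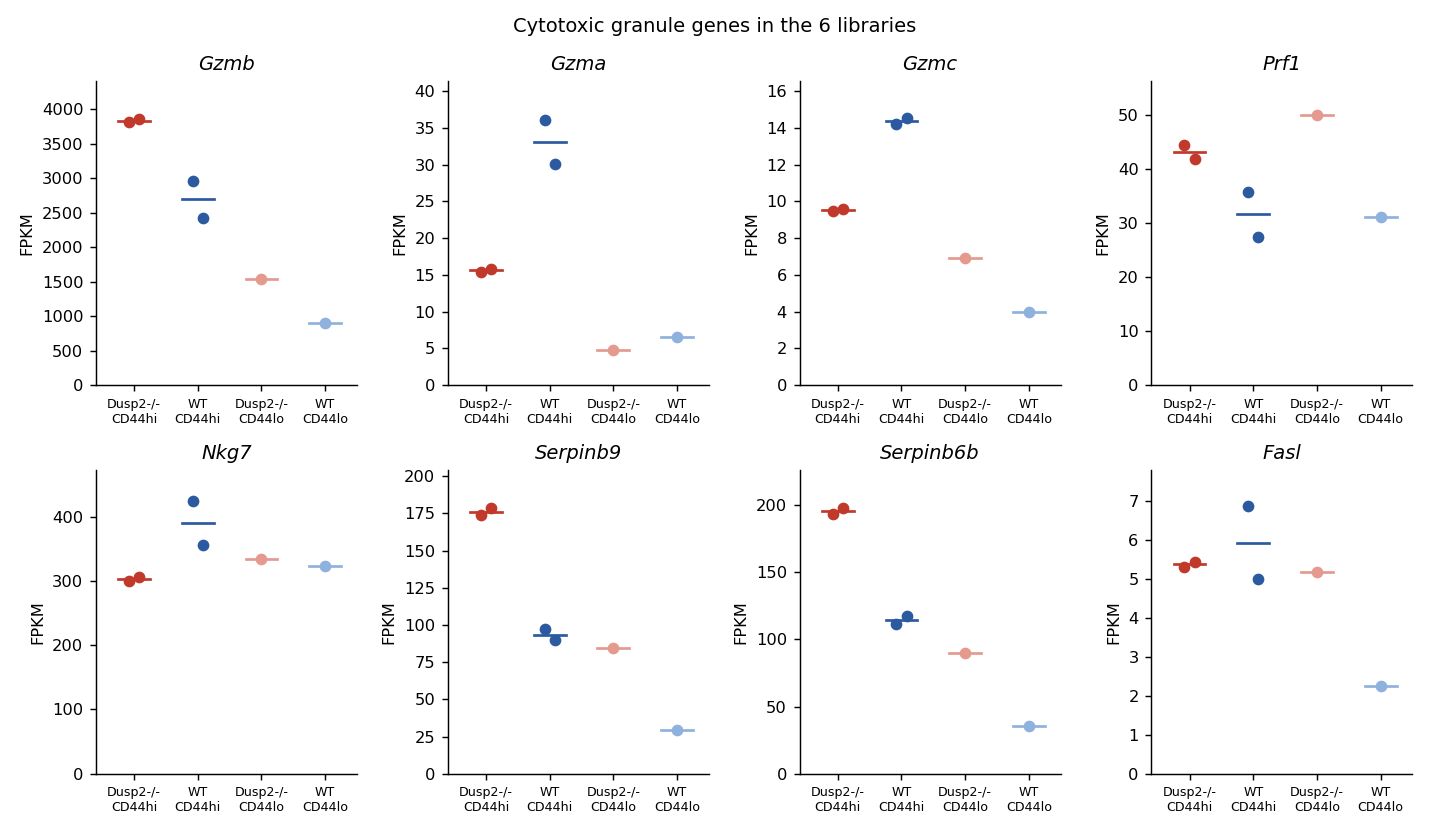
FPKM of each of the 8 genes (y axis, linear from 0, one scale per gene) in the 6 libraries, by genotype and CD44 fraction; points are libraries and bars are group means. In the CD44hi fraction Gzmb, Prf1, Serpinb9 and Serpinb6b were higher in both Dusp2-/- libraries than in both WT libraries, Gzma, Gzmc and Nkg7 were lower, and Fasl overlapped.

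The genotype comparison asks how each gene differed between Dusp2-/- and WT cells. Between the CD44hi fractions, where each genotype has 2 libraries, the 8 genes split. In Dusp2-/- cells 4 were higher (Gzmb, Prf1, Serpinb9 and Serpinb6b), 3 were lower (Gzma, Gzmc and Nkg7), and Fasl did not pass the test. Calls are from limma on log2(FPKM + 1) at a Benjamini-Hochberg adjusted p of at most 0.05, and they stand against a background of 26.7% of the 9691 genes tested (12.9% higher and 13.8% lower). The median difference of the 8 genes was 0.17 on the log2 scale and that of all genes tested −0.02. With no filter on low values, 2 of the 18122 rows passed and none of the 8 genes did. Only 2 residual degrees of freedom stand behind this test, and in bulk RNA fewer cells that carry a transcript cannot be told apart from less of it per cell.

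Gzmb was at 3812 and 3860 FPKM in the Dusp2-/- CD44hi libraries, against 2966 and 2419 FPKM in the WT CD44hi libraries. Both knockout libraries were above both WT libraries, which themselves lay well apart. The means were 3836 ± 34 FPKM in Dusp2-/- cells and 2692 ± 387 FPKM in WT cells (SD, n = 2 each), 1.42-fold higher in the knockout, with a log2 difference of 0.52 (SE 0.149, limma adjusted p = 0.0450). That call sits at the threshold. It ended without either Dusp2-/- CD44hi library (adjusted p = 0.373 and 0.396), and also with the CD44hi libraries fitted alone (adjusted p = 0.0577), without the WT CD44lo library (adjusted p = 0.0507), with median-ratio scaling (adjusted p = 0.0520) or with no filter on low values (adjusted p = 0.275). The call ended with a replicate block too (limma adjusted p = 0.0700). The difference itself stayed between 0.51 and 0.54 in the 6 fits before that. With the CD44hi libraries alone, without the WT CD44lo library, with no filter or with the block it cannot move, since only the spread or the set of genes changes. It depended on the WT libraries: it was 0.37 without WT CD44hi replicate 2 and 0.66 without WT CD44hi replicate 1, the extremes of all alternatives.

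Gzma was the gene of the 8 that fell most. It was at 15.4 and 15.8 FPKM in Dusp2-/- CD44hi cells, against 36.0 and 30.1 FPKM in WT CD44hi cells. The knockout values were close to each other and below both WT values. The means, 15.6 ± 0.234 FPKM in Dusp2-/- and 33.1 ± 4.22 FPKM in WT cells (SD, n = 2 each), were 2.12-fold lower in the knockout, a log2 difference of −1.03 (SE 0.0938, limma adjusted p = 0.00166).

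Gzmc, one of a cluster of granzyme genes next to Gzmb on mouse chromosome 14, fell as well. It was at 9.50 and 9.60 FPKM in Dusp2-/- CD44hi cells, against 14.2 and 14.5 FPKM in WT CD44hi cells, with no overlap and a narrow spread in both genotypes. Its log2 difference was −0.54 (SE 0.0678, limma adjusted p = 0.00401), 1.51-fold lower in Dusp2-/- cells. Of its 50-base stretches in GENCODE M21 transcripts, 35 of 845 (4.14%) also occur in Gzme, Gzmg or Gzmd, so some reads could be placed in more than one gene. Neither Gzma nor Gzmb shared such a stretch with another gene.

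Perforin was higher in the knockout as well. Prf1 was at 44.5 and 41.8 FPKM in the Dusp2-/- CD44hi libraries, against 35.7 and 27.5 FPKM in the WT CD44hi libraries. The lower knockout library was above the higher WT library, and the gap between the WT libraries was wider than that between the genotypes' nearest values. The mean was 43.2 ± 1.91 FPKM in Dusp2-/- cells and 31.6 ± 5.80 FPKM in WT cells (SD, n = 2 each), 1.37-fold higher in the knockout (log2 difference 0.45, SE 0.118, limma adjusted p = 0.0348). The difference depended on the WT libraries: it was 0.27 without WT CD44hi replicate 2 and 0.63 without WT CD44hi replicate 1. The call ended without Dusp2-/- CD44hi replicate 1 (adjusted p = 0.0573), without the variance trend (0.0505) and with no filter on low values (0.213), within a range of 0.000179 to 0.213 over all alternatives.

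Nkg7, whose product sits in the granule membrane and is needed for efficient degranulation, went the other way. It was at 299 and 307 FPKM in Dusp2-/- CD44hi cells, against 424 and 356 FPKM in WT CD44hi cells. Both knockout values lay below both WT values. The log2 difference was −0.36 (SE 0.102, limma adjusted p = 0.0442), 1.29-fold lower in Dusp2-/- cells. Without WT CD44hi replicate 1 the difference was −0.23. The call ended without either Dusp2-/- CD44hi library (adjusted p = 0.250 and 0.207), and under each of 3 rescalings of the libraries (adjusted p = 0.0537 by median ratio, 0.124 by quantiles and 0.0739 to an equal total). It also ended with the gene length trend removed (−0.21, adjusted p = 0.164), in the additive model (−0.22, adjusted p = 0.265) and with no filter on low values (adjusted p = 0.192), within a range of 0.00260 to 0.265 over all alternatives.

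The inhibitors changed most clearly upward. Serpinb9, a direct inhibitor of granzyme B, was at 174 and 178 FPKM in the Dusp2-/- CD44hi libraries, against 96.9 and 89.7 FPKM in the WT CD44hi libraries. All values of a genotype lay close together and far from those of the other. The means of 176 ± 3.06 FPKM in Dusp2-/- and 93.3 ± 5.14 FPKM in WT cells (SD, n = 2 each) gave a 1.89-fold higher level in the knockout (log2 difference 0.91, SE 0.0686, limma adjusted p = 0.000939).

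Serpinb6b, a serpin of the same clade whose product inhibits granzyme A in the mouse, was at 194 and 198 FPKM in Dusp2-/- CD44hi cells, against 111 and 118 FPKM in WT CD44hi cells. Again the genotypes did not overlap. The level was 1.71-fold higher in the knockout, a log2 difference of 0.77 (SE 0.0658, limma adjusted p = 0.00141). Stretches of 50 bases shared with other genes came to 67 of 2298 (2.92%) for Serpinb6b, with Serpinb6c, Gm8436 and Serpinb6a, and to 13 of 3442 (0.378%) for Serpinb9, with Serpinb9b. Serpinb6c and Serpinb9b were at 0.195 FPKM or less in every library and Serpinb6a at 1.15 to 1.80 FPKM.

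Fasl, the ligand of Fas, did not separate by genotype in this fraction. It was at 5.31 and 5.43 FPKM in Dusp2-/- CD44hi cells, against 6.86 and 4.99 FPKM in WT CD44hi cells, so that both knockout values lay between the WT values. The log2 difference was −0.11 (SE 0.132, limma adjusted p = 0.576). It was −0.30 with an adjusted p of 0.0269 without WT CD44hi replicate 2, and 0.09 without WT CD44hi replicate 1, with adjusted p from 0.0269 to 0.942 over all alternatives.

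**Figure D2:**
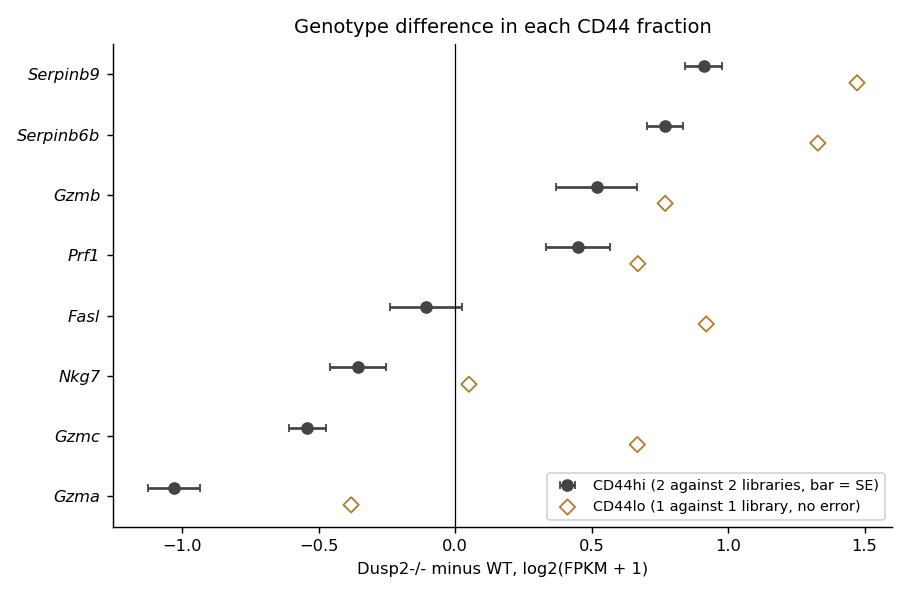
Difference between Dusp2-/- and WT on the log2(FPKM + 1) scale (x axis) for each gene (y axis), in CD44hi cells (filled circles, bars are the standard error, 2 libraries against 2) and in CD44lo cells (open diamonds, 1 library against 1, no error). Serpinb9 and Serpinb6b lie farthest to the right in both fractions, Gzma lies to the left in both, and Gzmc is at −0.54 in CD44hi and 0.67 in CD44lo cells.

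Between the CD44lo fractions each genotype has 1 library, so the values are a description with no replicate check. A difference of at least 1 log2 unit was reached by 2 of the 8 genes, both higher in Dusp2-/- cells, against 1.68% of all genes tested (0.795% higher and 0.887% lower). The median difference of the 8 genes was 0.72 and that of all genes −0.01. The 2 genes were the inhibitors, and with a pseudocount of 0.1 or 0.5 in place of 1 Fasl joined them (1.16 and 1.04). Serpinb9 was at 84.2 FPKM in the Dusp2-/- CD44lo library (95% exact Poisson interval 82.3 to 86.2) and 29.7 FPKM in the WT CD44lo library (28.9 to 30.5), 2.83-fold higher in the knockout, with a log2 difference of 1.47. Serpinb6b was at 90.1 FPKM in the Dusp2-/- library (87.5 to 92.6) and 35.3 FPKM in the WT library (34.2 to 36.4), 2.55-fold higher, a log2 difference of 1.33. The intervals cover counting error only.

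Gzmb was at 1542 FPKM in Dusp2-/- CD44lo cells and 904 FPKM in WT CD44lo cells, 1.71-fold higher in the knockout (log2 difference 0.77, and 0.47 with quantile normalization). Prf1 stood at 50.0 FPKM in the Dusp2-/- library and 31.1 FPKM in the WT library, 1.61-fold higher (0.67). These genes, higher in Dusp2-/- CD44hi cells, were thus higher in Dusp2-/- CD44lo cells too. Fasl and Gzmc were also higher in this fraction: Fasl was at 5.17 FPKM in the Dusp2-/- library (4.53 to 5.87) and 2.26 FPKM in the WT library (1.97 to 2.58), 2.29-fold higher (0.92), and Gzmc at 6.94 FPKM in the Dusp2-/- library (5.86 to 8.15) and 4.0 FPKM in the WT library (3.44 to 4.62). Gzma was lower, at 4.83 FPKM in the Dusp2-/- library (3.99 to 5.79) and 6.60 FPKM in the WT library (5.91 to 7.34), intervals that come close without overlapping. Nkg7 was at 334 FPKM in the Dusp2-/- library (324 to 346) and 323 FPKM in the WT library (316 to 330), and these intervals overlap; the sign turned with quantile normalization (−0.11) and an equal total (−0.056).

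Whether the genotype difference itself depended on the fraction was tested with the interaction term of the same model, in which the single CD44lo libraries are assumed to vary like the CD44hi ones. It was called for 2 of the 8 genes, both with a smaller or opposite difference in CD44hi cells, against 4.22% of all genes tested (2.73% higher and 1.49% lower). Gzmc had the interaction of larger size, −1.21 on the log2 scale (SE 0.117, limma adjusted p = 0.0244). It was lower in the knockout among CD44hi cells and higher in the knockout among CD44lo cells, where 148 reads in the Dusp2-/- library and 182 in the WT library stand behind the values. For Serpinb6b the interaction was −0.56 (SE 0.114, limma adjusted p = 0.0496): the gene was higher in the knockout in both fractions, and more so in CD44lo cells. That call ended in 8 of its 17 alternatives: without either Dusp2-/- CD44hi library (adjusted p = 0.145 and 0.116), with no filter (0.127), median-ratio scaling (0.0547), an equal total (0.0630), no variance trend (0.0719), robust variance (0.0517) or the gene length trend removed (0.102), within a range of 0.00620 to 0.145 over all alternatives. Serpinb9 gave nearly the same value, −0.56 (SE 0.119), and missed the threshold (adjusted p = 0.0528). Fasl with −1.03 (SE 0.228, adjusted p = 0.0564) and Gzma with −0.65 (SE 0.163, adjusted p = 0.0682) missed it too. With all 6 libraries kept, Serpinb9 and Fasl were both called with a pseudocount of 0.1, a minimum mean of 5 FPKM, median-ratio scaling, the replicate block, limma voom or chromosome 14 left out. Fasl was also called with quantile normalization. Neither was called with a pseudocount of 0.5, no filter, an equal total, no variance trend, robust variance or the gene length trend removed. Which of Serpinb6b, Serpinb9 and Fasl passed thus depended on the setting. The interactions of Gzmb (−0.25, SE 0.259, adjusted p = 0.555), Prf1 (−0.22, SE 0.205, adjusted p = 0.513) and Nkg7 (−0.41, SE 0.177, adjusted p = 0.186) were not called.

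The fraction comparison asks how CD44hi cells differ from CD44lo cells of the same culture. In Dusp2-/- cells 5 of the 8 genes were higher in the CD44hi fraction and 0 lower (Gzma, Gzmb, Gzmc, Serpinb9 and Serpinb6b), against a background of 40.1% of genes called (23.6% higher and 16.5% lower). Without WT CD44hi replicate 1 or 2, which changes the spread and not these differences, Prf1 (adjusted p = 0.0314 and 0.0307) and Nkg7 (0.0492 and 0.0491) were also called, both lower in Dusp2-/- CD44hi cells. Among WT cells 6 were higher and 0 lower, the same 5 and Fasl, against 26.1% (15.4% higher and 10.7% lower). Both comparisons set 2 libraries against 1, and their CD44hi libraries are those of the genotype comparison. The median difference of the 8 genes was 0.73 in Dusp2-/- cells and 1.59 in WT cells, and that of all genes 0.05 in each genotype.

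Gzma differed most between the fractions, except that with quantile normalization Gzmb differed more in Dusp2-/- cells (1.60 for Gzmb and 1.43 for Gzma on the log2 scale). Its levels of 15.4 and 15.8 FPKM in Dusp2-/- CD44hi cells stood against 4.83 FPKM in Dusp2-/- CD44lo cells, a 3.23-fold higher mean (log2 difference 1.51, SE 0.115, limma adjusted p = 0.000299). In WT cells, 36.0 and 30.1 FPKM in the CD44hi libraries stood against 6.60 FPKM in the CD44lo library, 5.01-fold higher (2.16, SE 0.115, limma adjusted p = 9.88e-05). Gzmb was 2.49-fold higher in CD44hi than in CD44lo cells of Dusp2-/- mice (1.31, SE 0.183, limma adjusted p = 0.00255) and 2.98-fold higher in WT cells (1.57, SE 0.183, limma adjusted p = 0.00186). Both Gzmb calls ended with no filter on low values. The lowest of the 6 Gzmb values, 904 FPKM in the WT CD44lo library, still exceeded every value of the other 7 genes.

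Both inhibitors followed Gzmb across the fractions. Serpinb9 was 2.09-fold higher in CD44hi cells in the knockout (log2 difference 1.06, limma adjusted p = 0.000343) and 3.14-fold higher in WT cells (1.62, limma adjusted p = 9.29e-05). For Serpinb6b the fold was 2.17 in the knockout (1.11, limma adjusted p = 0.000258) and 3.25 in WT cells (1.67, limma adjusted p = 8.29e-05). Gzmc was 1.38-fold higher in CD44hi cells of the knockout (0.41, SE 0.0831, limma adjusted p = 0.00980) and 3.60-fold higher in WT cells (1.62, SE 0.0831, limma adjusted p = 9.14e-05). The knockout call for Gzmc ended without Dusp2-/- CD44hi replicate 1 (adjusted p = 0.0503) or replicate 2 (adjusted p = 0.0589) and with limma voom on recovered reads (adjusted p = 0.170, the highest of its alternatives).

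Perforin and Nkg7 did not share this pattern. Prf1 was at 44.5 and 41.8 FPKM in Dusp2-/- CD44hi cells and 50.0 FPKM in Dusp2-/- CD44lo cells (log2 difference −0.21, SE 0.145, limma adjusted p = 0.286), and at 35.7 and 27.5 FPKM in WT CD44hi cells and 31.1 FPKM in WT CD44lo cells (0.01, SE 0.145, limma adjusted p = 0.964). The highest Prf1 value of the 6 was therefore in a CD44lo library, and in WT cells the CD44lo value lay between the CD44hi values. The Nkg7 difference was −0.14 in Dusp2-/- cells (SE 0.125, limma adjusted p = 0.395) and 0.26 in WT cells (SE 0.125, limma adjusted p = 0.163), with levels of 299 to 424 FPKM over the 6 libraries. Fasl was 2.62-fold higher in CD44hi than in CD44lo cells of WT mice (1.07, SE 0.161, limma adjusted p = 0.00488), and in the knockout its difference was 0.05 (SE 0.161, limma adjusted p = 0.838). The WT call for Fasl ended with no filter on low values.

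**Figure D3:**
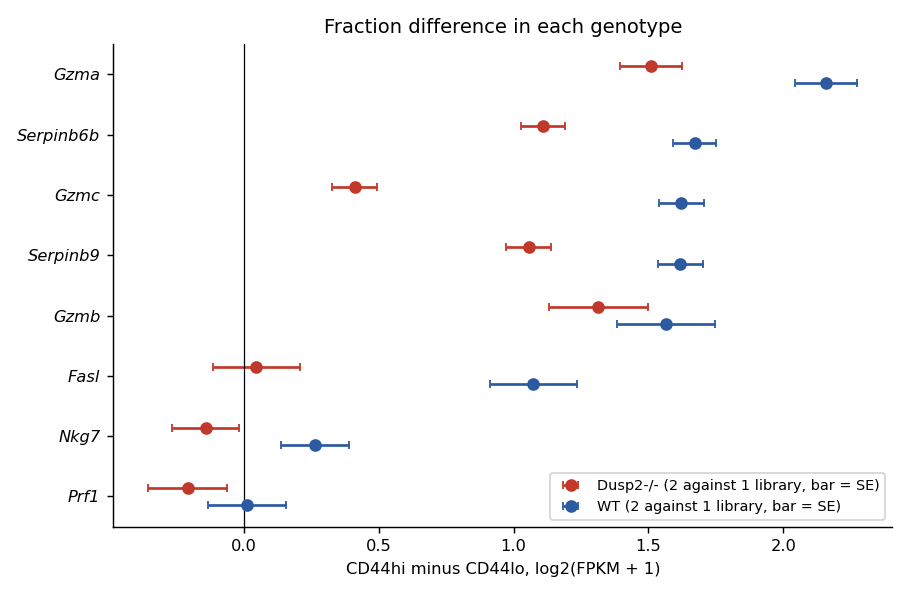
Difference between CD44hi and CD44lo cells on the log2(FPKM + 1) scale (x axis) for each gene (y axis), in Dusp2-/- cells (red) and WT cells (blue); bars are the standard error, 2 libraries against 1. Gzma, both serpins and Gzmb lie at 1.06 or above in both genotypes, Gzmc and Fasl only in WT cells, and Prf1 and Nkg7 lie between −0.21 and 0.26.

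Within-library ratios of FPKM show the make-up of the granule genes apart from the depth of a library; they are given with no test. Gzmb was 247 and 245 times Gzma in the Dusp2-/- CD44hi libraries, against 82.3 and 80.4 times in the WT CD44hi libraries. In CD44lo cells the ratio was 319 in the Dusp2-/- library and 137 in the WT library. The ratio was therefore above every WT value in all 3 Dusp2-/- libraries. Gzmb over Gzmc was 401 and 402 in Dusp2-/- CD44hi cells and 209 and 166 in WT CD44hi cells, but 222 in the Dusp2-/- CD44lo library and 226 in the WT CD44lo library, nearly equal there.

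The ratio of Gzmb to each inhibitor was lower in the knockout. Gzmb over Serpinb9 was 21.9 and 21.6 in Dusp2-/- CD44hi cells and 30.6 and 27.0 in WT CD44hi cells, and 18.3 in the Dusp2-/- CD44lo library and 30.4 in the WT CD44lo library. Gzmb over Serpinb6b was 19.7 and 19.5 in Dusp2-/- CD44hi cells and 26.6 and 20.6 in WT CD44hi cells, and 17.1 in the Dusp2-/- CD44lo library and 25.7 in the WT CD44lo library. All 3 Dusp2-/- libraries were below all 3 WT libraries in both ratios. Gzmb over Prf1 went with the fraction instead: it was 85.6 and 92.3 in Dusp2-/- CD44hi cells and 83.1 and 88.0 in WT CD44hi cells, against 30.8 in the Dusp2-/- CD44lo library and 29.1 in the WT CD44lo library. Here the genotypes overlapped within the CD44hi fraction, and both CD44lo values lay far below.

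**Figure D4:**
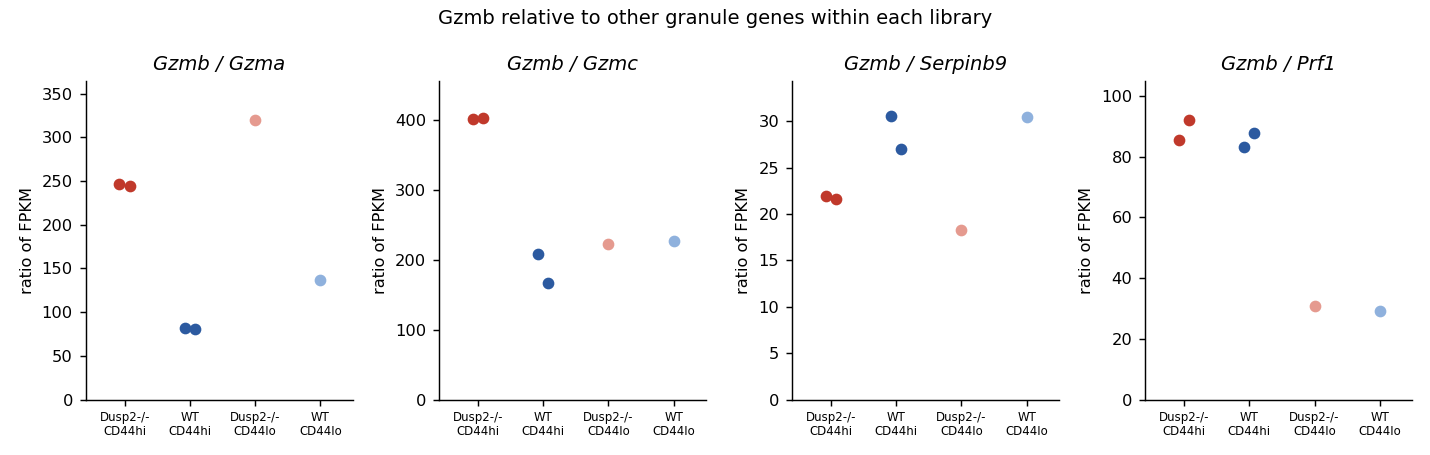
Ratio of Gzmb FPKM to that of Gzma, Gzmc, Serpinb9 and Prf1 (y axes, linear from 0) within each of the 6 libraries, by genotype and CD44 fraction; points are libraries. Gzmb over Gzma was 245 or more in the 3 Dusp2-/- libraries and 137 or less in the 3 WT libraries, whereas Gzmb over Prf1 was 83.1 or more in CD44hi and 30.8 or less in CD44lo libraries of both genotypes.

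The likeness of 2 patterns was measured as the root mean square difference of log2(FPKM + 1) over the 6 libraries. Each gene was centred on its own mean, and 9680 genes were compared. The measure is a description, and the libraries share depth and culture. The added 1 shrinks the differences of genes at few FPKM, so such a gene can lie close to a high gene with smaller folds. The measure also grows with how far the values of a gene spread. Serpinb9 and Serpinb6b were the closest pair among the 28 pairs of the 8 genes (0.0938 log2 units), and each was the other's nearest gene of all those compared. Next came Gzmb with Serpinb6b (0.221) and with Serpinb9 (0.268), while Gzma and Prf1 were farthest apart (1.14). After each other, both serpins were closest to Cd83 and Tnfrsf4, at 0.107 and 0.123 for Serpinb6b and 0.115 and 0.146 for Serpinb9. Cd83, an activation marker, was at 46.6 and 46.2 FPKM in Dusp2-/- CD44hi cells and 30.1 and 27.0 FPKM in WT CD44hi cells, and at 24.2 FPKM in the Dusp2-/- CD44lo library and 9.07 FPKM in the WT CD44lo library. Tnfrsf4 encodes the costimulatory receptor OX40.

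For Gzmb the nearest patterns were those of Tpx2 (0.0737), a spindle protein gene, Cdc45 (0.0818), a replication factor gene, and Pdgfb (0.0869). Tpx2, at 1.05 to 8.08 FPKM, and Pdgfb, at 0.524 to 4.80 FPKM, are low enough for the added 1 to shrink their differences. Tpx2 was at 5.34 and 4.64 FPKM in WT CD44hi cells and 1.05 FPKM in the WT CD44lo library, a larger fold than the 2.98 of Gzmb. Cdc45 was at 27.1 and 28.3 FPKM in Dusp2-/- CD44hi cells and 18.3 and 17.4 FPKM in WT CD44hi cells, and at 10.7 FPKM in the Dusp2-/- CD44lo library and 5.83 FPKM in the WT CD44lo library. Prf1 was nearest to Nr4a2 (0.0552), which encodes an orphan nuclear receptor, and then to Ppic (0.0932) and Tgfb1 (0.120). The genes nearest to Gzma were Klrc1 (0.307), which encodes the inhibitory receptor NKG2A, Gm22858 (0.360) and Samd3 (0.368). These distances were larger than those of the nearest genes of the others. Since the measure grows with the spread of a gene, they do not rank how well each gene was matched. Gzmc was nearest to Ppm1j (0.119), Plscr1 (0.125) and Sapcd2 (0.171). Nkg7 was nearest to Lypd6b (0.0158), Slc25a28 (0.0396) and Ndfip1 (0.0432). Lypd6b was at 1.06 to 1.95 FPKM, where the added 1 shrinks differences, so its closeness to Nkg7 does not mean equal folds. Fasl was nearest to Mir3091 (0.0919), Wnt10b (0.114) and Snhg4 (0.152).

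Position on the chromosome is given because Gzmb and Gzmc lie on chromosome 14, where 10 of 330 tested genes (3.03%) differed by at least 1 log2 unit between the CD44hi genotypes, against 65 of 9551 (0.681%) over all chromosomes. By calls alone, 90 of the 330 (27.3%) passed, against 26.4% over all chromosomes. Among the 20 tested genes nearest to Gzmb in RefSeq order, with T cell receptor segments set apart, 2 were called higher and 2 lower in Dusp2-/- CD44hi cells, Gzmc among the lower, and 0 differed by 1 log2 unit or more. The chromosome 14 gene of such size nearest to Gzmb was Ppp1r3e, 26 tested genes away, with −1.64 in CD44hi and −1.63 in CD44lo cells. Dusp2 itself lies on chromosome 2. The part of chromosome position in the values of Gzmb and Gzmc was not tested. Serpinb9 and Serpinb6b are direct neighbours on chromosome 13 among the tested genes. Of the 20 genes around Serpinb9, 5 were called higher and 0 lower in the knockout, counting Serpinb6b, and none reached 1 log2 unit. For the other genes, the calls among the 20 neighbours were 1 higher and 3 lower around Gzma, 0 and 2 around Prf1, 3 and 3 around Nkg7, and 3 and 1 around Fasl. Spib, near Nkg7 on chromosome 7, was the one neighbour of 1 log2 unit or more (1.54, limma adjusted p = 0.000765).

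**Figure D5:**
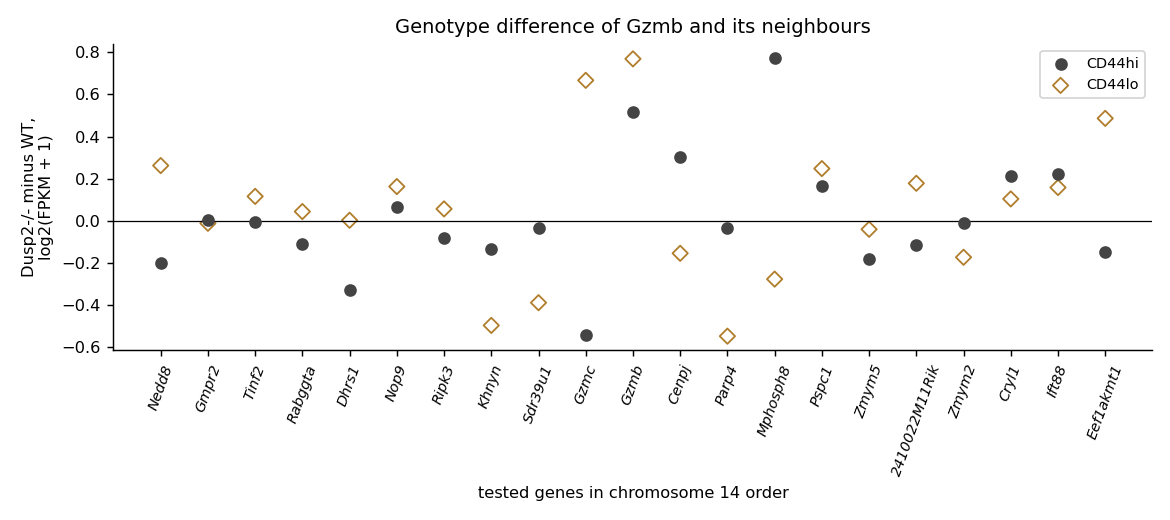
Difference between Dusp2-/- and WT on the log2(FPKM + 1) scale (y axis) for Gzmb and the 10 tested genes on either side of it in chromosome 14 order (x axis), in CD44hi cells (filled circles) and CD44lo cells (open diamonds). Gzmb is at 0.52 and 0.77 and its neighbour Gzmc at −0.54 and 0.67, and no neighbour reaches 1 log2 unit.

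The other genes of the killing pathway were counted in lists by role, beside the 26.7% background of the CD44hi genotype comparison. In the list of granule matrix, sorting and granzyme processing genes, 2 of 11 tested were higher in Dusp2-/- cells, 2 lower and 7 not called, with a median of 0.03. Ctsc, the protease that trims granzymes into active form, was at 19.6 and 19.6 FPKM in Dusp2-/- and 16.7 and 13.2 FPKM in WT CD44hi cells (log2 difference 0.38, limma adjusted p = 0.0421). Igf2r, the receptor that sorts granzymes by mannose 6-phosphate, was higher by 0.44 (limma adjusted p = 0.0283). The genes that fell were Cst7, a cystatin that inhibits cathepsins (−0.30, limma adjusted p = 0.0250), and Ctsw, a cathepsin of cytotoxic lymphocytes (−0.41, limma adjusted p = 0.0298). Ctsw was at 84.8 and 81.0 FPKM in Dusp2-/- and 122 and 99.7 FPKM in WT CD44hi cells.

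Of 18 tested genes of granule exocytosis, 2 were higher, 4 lower and 12 not called, with a median of −0.04. Rab27a, the GTPase that docks granules at the membrane, was at 30.9 and 32.7 FPKM in Dusp2-/- and 20.1 and 22.1 FPKM in WT CD44hi cells (0.57, limma adjusted p = 0.00424). Vamp2, a vesicle SNARE, was at 7.25 and 6.84 FPKM in Dusp2-/- and 13.0 and 11.7 FPKM in WT CD44hi cells (−0.73, limma adjusted p = 0.00268). Stx11 and its partner Stxbp2, both needed for granule fusion, were lower by less (−0.39, limma adjusted p = 0.0244, and −0.32, limma adjusted p = 0.0164). Between the fractions of Dusp2-/- cells 8 of the 18 were lower in CD44hi cells and 1 higher, beside backgrounds of 16.5% lower and 23.6% higher. In WT cells 5 were lower and 4 higher, beside 10.7% lower and 15.4% higher. Of the other inhibitors listed, 3 of 15 passed the filter and none was called between the CD44hi genotypes.

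Among 17 tested genes of death receptors, their ligands and granzyme substrates, 7 were higher in Dusp2-/- CD44hi cells, 1 lower and 9 not called, with a median of 0.22. Ifng, the cytokine interferon gamma, was at 571 and 601 FPKM in Dusp2-/- and 217 and 186 FPKM in WT CD44hi cells (1.54, limma adjusted p = 0.000641). Lta, which encodes lymphotoxin alpha, was at 33.4 and 37.2 FPKM in Dusp2-/- and 14.8 and 12.6 FPKM in WT CD44hi cells (1.30, limma adjusted p = 0.000878). Tnf, which encodes the cytokine tumour necrosis factor, rose less (0.47, limma adjusted p = 0.0221). Fas, the receptor of Fas ligand, was at 17.8 and 17.7 FPKM in Dusp2-/- and 19.2 and 16.8 FPKM in WT CD44hi cells (−0.01, limma adjusted p = 0.913).

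Of 20 tested transcription factors of the cytotoxic program, 4 were higher, 6 lower and 10 not called, with a median of −0.02. Tbx21, which encodes T-bet, was at 42.4 and 38.2 FPKM in Dusp2-/- and 27.9 and 27.6 FPKM in WT CD44hi cells (0.52, limma adjusted p = 0.00520). Eomes, a related T-box factor, was at 68.6 and 68.3 FPKM in Dusp2-/- and 66.3 and 69.7 FPKM in WT CD44hi cells (0.01, limma adjusted p = 0.928), and the genotypes overlapped for Runx3 as well, at 14.9 and 13.5 FPKM in Dusp2-/- and 14.8 and 13.7 FPKM in WT CD44hi cells. Klf2, a factor of quiescent T cells, was at 14 and 10.2 FPKM in Dusp2-/- and 35.1 and 37.4 FPKM in WT CD44hi cells (−1.52, limma adjusted p = 0.00154). Id3 (−0.70, limma adjusted p = 0.00195) and Nfil3 (−0.57, limma adjusted p = 0.00325) fell as well. Of 12 receptors for signals that act on granule genes, 3 were higher, 1 lower and 8 not called. Il2ra, the alpha chain of the IL-2 receptor, was at 90.0 and 95.1 FPKM in Dusp2-/- and 48.9 and 41.0 FPKM in WT CD44hi cells (1.03, limma adjusted p = 0.00163). The IL-12 receptor genes Il12rb1 (1.11, limma adjusted p = 0.00372) and Il12rb2 (0.53, limma adjusted p = 0.0160) rose, and Ifnar1, a chain of the receptor for the IFN-α in the culture, fell (−0.40, limma adjusted p = 0.00973).

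Gzma, Nkg7 and Prf1 are also genes of natural killer cells, so the markers of other cells are given beside them. The CD8 T cell genes were high throughout, with Cd8a at 246 to 358 FPKM, and Cd4 was at 0.0228 FPKM or less. The 8 NK cell markers in the table summed to 2.25 and 2.49 FPKM in the Dusp2-/- CD44hi libraries, 2.91 and 3.05 FPKM in the WT CD44hi libraries, 0.203 FPKM in the Dusp2-/- CD44lo library and 0.135 FPKM in the WT CD44lo library. In CD44hi cells the sum was lower in the knockout, as Gzma, Gzmc and Nkg7 were. Prf1 (0.45), Gzmb and both serpins were higher there, and Fasl was not called. The 1 NK marker tested was not called between the CD44hi genotypes (log2 difference −0.13). In both genotypes the sum was higher in CD44hi than in CD44lo cells, as Gzma, Gzmb, Gzmc and both serpins were. Prf1 and Nkg7 were called between the fractions of neither genotype, and Fasl in WT cells only. Most of the sum was Klra3, at 1.48 to 1.91 FPKM in CD44hi cells and 0 in both CD44lo libraries. Of the defining markers, Klrb1c was at 0.0466 FPKM or less everywhere and Tyrobp was at 0 in all Dusp2-/- libraries and in WT CD44lo cells, and at 0.138 and 0.265 FPKM in WT CD44hi cells. Among 7 CD8 T cell markers, Cd3d, Cd3e, Cd3g and Lck were called lower in Dusp2-/- CD44hi cells, where Nkg7 was lower too, and Cd247 higher. Between the fractions, 6 of the 7 were called lower in CD44hi than in CD44lo cells of the knockout (median −0.50) and 3 in WT cells (median −0.32), opposite to the granule genes called there; none was higher. Of the B cell genes, Cd79b differed in the same directions as the serpins, though not in the same proportions. It was at 22.4 and 24.5 FPKM in the knockout and 12.2 and 9.88 FPKM in WT among CD44hi cells (log2 difference 1.03, limma adjusted p = 0.00228). In CD44lo cells Cd79b stood at 11.2 FPKM in the knockout and 6.92 FPKM in WT. This gene was called higher in CD44hi than in CD44lo cells in the knockout (1.00) and in WT cells (0.60). Both serpins instead had the larger fraction difference in WT cells (Serpinb9 1.06 in the knockout and 1.62 in WT cells, Serpinb6b 1.11 and 1.67). Ighm, at 110 to 140 FPKM, was called in none of these comparisons, and Cd79a was at 0.379 FPKM or less. Myeloid and dendritic markers summed to 1.49 and 1.21 FPKM in the knockout CD44hi libraries and to 1.71 FPKM in replicate 1 of WT CD44hi, with replicate 2 just above the higher knockout value, against 0.480 FPKM in the Dusp2-/- CD44lo library and 0.396 FPKM in the WT CD44lo library. Itgax, the one of them tested, was higher in CD44hi than in CD44lo cells of both genotypes (0.65 in the knockout and 1.14 in WT cells), as Gzma, Gzmb, Gzmc and the serpins were. The CD4 T cell list summed to 0.265 to 0.801 FPKM, the gamma delta T cell list to 0.155 to 1.05 FPKM, and the mast cell, basophil and neutrophil list to 0.0249 to 0.137 FPKM. The part of other cells in the values of the 8 genes was not tested.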

How the data were processed

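The authors deposited FPKM values for 18122 rows, 1 column per library; HISAT2 2.0.5 and the builds mm39 and hg38 are listed, with no step assigned, per the submitters' processing notes. The sources used here give no read counter, annotation or strand setting. RNA was Trizol total RNA and libraries followed Illumina protocols, per the labels. All 6 columns matched sample titles, which gave genotype, fraction and replicate.

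Gene symbols are those of the table, of which 99.9% matched RefSeq GRCm38.p6. FPKM values of a gene were taken as whole multiples of 1 read. All 16220 rows above 0 in at least 2 libraries came out whole, within 1e-06 reads or, at high counts, a tolerance that grew with the count. Of 2000 perturbed rows 2 came out whole. The perturbed rows were searched over a smaller range of counts, so the 2 results cannot be compared directly. A row above 0 in 1 library alone was taken as 1 read there. The smallest numbers that fit gave depths and Poisson intervals (95%, counting error only). They did not enter the main test.

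Each gene with a mean of 1 FPKM or more (9691 in all) was fitted as log2(FPKM + 1), pseudocount 1, by limma 3.58.1 under R 4.3.3. The model had 1 coefficient per group and a variance trend, and two-sided p-values were adjusted by Benjamini-Hochberg over all these genes. Folds are ratios of mean FPKM, and log2 differences carry the pseudocount, so they understate changes of low genes. With 1 CD44lo library per genotype, that contrast was described and not tested. The scripts were tested on simulated data. Alternatives varied the pseudocount, filter, scaling, variance model, libraries, model form and a replicate block, and used limma voom on recovered reads. The genes named from each list are up to 4 with a mean of at least 5 FPKM and the smallest p; 1 such gene is not reported here. Fas, Eomes and Runx3 and the single markers given by value were named after their values were seen. The 8 genes and the lists were chosen with earlier results of these data known.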

Additional observations from a re-analysis of the deposited data

Results flagged for a closer look

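Gzmc had opposite genotype differences in the fractions, lower in Dusp2-/- CD44hi cells (−0.54 on the log2 scale) and higher in the single Dusp2-/- CD44lo library (0.67). The difference between them was −1.21 and was called by the interaction term (limma adjusted p = 0.0244). It was called under every alternative run but the one with no filter on low values (adjusted p = 0.0552).

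Serpinb6b was higher in Dusp2-/- cells in both fractions, by 0.77 in CD44hi and 1.33 in CD44lo cells, and its interaction of −0.56 was just past the threshold (limma adjusted p = 0.0496). That call ended in 8 of its 17 alternatives, with adjusted p of 0.00620 to 0.145 over all of them.

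Nkg7 was lower in both Dusp2-/- CD44hi libraries and slightly higher in the Dusp2-/- CD44lo library, a difference between fractions of −0.41. The signs alone brought it out. Its interaction was not called (limma adjusted p = 0.186), the CD44lo counting intervals overlap, and the CD44lo sign turned with quantile normalization (−0.11) and an equal total (−0.056).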

How the results depend on the processing

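The Dusp2-/- CD44lo library was the shallowest (23490008 reads recovered, against 42816073 to 55830235 in the other 5), and 116 reads of Gzma and 148 of Gzmc stand behind its values. Of the 8 genes, 7 were called between the CD44hi genotypes, and other settings gave 5 to 7, except 0 with no filter on low values and 4 to 8 when 1 library was left out (4 without Dusp2-/- CD44hi replicate 1). Gzma, Serpinb9 and Serpinb6b kept their call in all of these but the fit with no filter (adjusted p = 0.0710, 0.0622 and 0.0622), and Gzmc lost it also in the additive model (−0.14). With no filter, 4 of the 8 genes were called between the fractions of each genotype, with Gzmb lost in both and Fasl in WT cells. Between fractions, leaving out 1 library gave 4 to 7 calls in Dusp2-/- cells (main 5; the 2 gained without a WT CD44hi library were Prf1 and Nkg7, lower in CD44hi) and 6 to 7 in WT cells (main 6), and without chromosome 14, which drops Gzmb and Gzmc, 3 of 6 genes were called in Dusp2-/- cells. The interaction count of 2 was the least stable: 4 with a pseudocount of 0.1, 4 with a minimum mean of 5 FPKM, 4 with limma voom, 1 each with an equal total of 1000000, no variance trend, robust variance or the gene length trend removed, 0 with no filter, and 2 to 8 when 1 library was left out (6 without WT CD44hi replicate 1 and 8 without replicate 2). The deviations of same-numbered CD44hi libraries were hardly correlated (Pearson r = 0.0224 across 9691 genes, which are not independent). A low r cannot show that same-numbered libraries were not handled together. The replicate block gave 6 calls between the CD44hi genotypes, with Gzmb lost (limma adjusted p = 0.0700), and 5 for the interaction. Of all genes, the block called 3326 between the CD44hi genotypes, against 2586 without it. For the interaction it called 1565, against 409 without it. Between the CD44lo libraries, 2 of the 8 genes and 163 of all genes reached 1 log2 unit, against 3 and 323 with a pseudocount of 0.1, 3 and 223 with 0.5, and 2 and 288 with an equal total. Of all genes, 2586 were called between the CD44hi genotypes, but 2 with no filter, 1008 in the additive model, and 1185 and 1088 without Dusp2-/- CD44hi replicate 1 or 2 and 4092 without WT CD44hi replicate 1. Counted in reads, Gzmb took 99.5% and 99.5% of granzyme reads in Dusp2-/- CD44hi, 98.8% and 98.7% in WT CD44hi, 99.5% in Dusp2-/- CD44lo and 99.1% in WT CD44lo cells. Directions turned only for differences that were not called. Fasl between the CD44hi genotypes was −0.30 to 0.088 when 1 library was left out (0.088 without WT CD44hi replicate 1) and 0.23 in the additive model. Between fractions of Dusp2-/- cells, Fasl was −0.0012 with median-ratio scaling, −0.067 with quantile normalization and −0.0064 with limma voom, and Nkg7 was 0.11 with quantile normalization and 0.058 with the gene length trend removed. Prf1 between WT fractions was −0.043 with median-ratio scaling, −0.018 with quantile normalization, −0.0036 with an equal total, −0.17 to 0.19 when 1 library was left out (−0.17 without WT CD44hi replicate 1), −0.054 with limma voom and −0.063 with the gene length trend removed, and the Gzmb interaction was 0.076 with quantile normalization. The causes were not tested.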
